A study of Canis lupus familiaris with 12 samples.

Results

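miR-146a, miR-146b, miR-147 and miR-155 are microRNAs (miRNAs) of the inflammatory response, and they were compared between the canine mammary gland tumor line CHMm and its tamoxifen-resistant derivative CHMmTAM. The 4 miRNAs were chosen by name as known NF-kB and innate response miRNAs, and all 4 were found among the 453 miRNAs of the count table and among the 284 with enough counts to be tested. CHMm was grown from a metastatic lesion (pleural effusion) of a dog. CHMmTAM was selected from it over 10 months under rising tamoxifen (TAM) until the cells grew at 10 μM, was held there for 1 month and was then kept without the drug for 1 week. Both lines were grown in phenol-red-free DMEM with charcoal-stripped serum, and the libraries of CHMmTAM come from 1 resistant line. The paper also lists 4-hydroxytamoxifen among the components of the medium and does not say for which line. There were 3 small RNA libraries of each line, and nothing in the labels says that they came from separate cultures. The p-values therefore rest only on the spread between these libraries, which may be technical. The RNA-seq libraries of the series were not analysed here.

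NF-kB is a transcription factor that Toll-like receptors and inflammatory cytokines switch on. miR-146a is made under its control and in turn represses TRAF6 and IRAK1, signalling proteins downstream of the same receptors, so that it acts as a brake on the pathway. miR-146b comes from another gene but has the same seed, the stretch of a miRNA that pairs with its targets, and differs from miR-146a only near the 3′ end. miR-147 is induced in macrophages by Toll-like receptor ligands and dampens their cytokine response. miR-155 is processed from a non-coding transcript, is abundant in activated leukocytes and in many tumors, and represses SOCS1 and the phosphatase SHIP1, which restrain cytokine signalling. RefSeq's annotation of UU_Cfam_GSD_1.0, another dog assembly than that of the files, places the 4 miRNA genes on different chromosomes, where none has another miRNA gene within 10 kb. MIR146B lies within a non-coding RNA gene next to CUEDC2, MIR147 between SPATA5L1 and SLC30A4, and MIR155 next to MRPL39. The count table does not name the precursor arm of these miRNAs.

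The libraries held between 7512659 and 12482211 counts each, of which miR-21 took from 50.2% to 54.5%. Levels are given as CPM, the counts brought to a common library size with edgeR's TMM factors, and a count of 3 stands for 0.240 to 0.399 CPM depending on the library. The quasi-likelihood test of edgeR was used for CHMmTAM against CHMm, and FDR is its p-value after Benjamini-Hochberg adjustment over the 284 miRNAs. The spread that edgeR assumes for a miRNA was estimated mostly from all tested miRNAs, so the miRNA's own libraries weigh little in it. A call needed an FDR under 0.05 together with a log2 fold change beyond 1 in either direction.

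All 4 miRNAs had lower levels in every CHMmTAM library than in any CHMm library, but by very different amounts. miR-146b fell to 0.323 and miR-147 to 0.364 of the parental level, miR-155 to 0.604, and miR-146a stood at 0.832 of its parental level without passing the test. Of the 4, 2 were called lower at both thresholds, where 5.28% of the tested miRNAs were called lower. At FDR alone 3 of the 4 were lower, against 18.7% of the tested miRNAs. Groups without overlap on the lower side were found for 22.9% of the tested miRNAs. The 4 were chosen with earlier results of these data known, so these shares do not test whether they stand out.

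**Figure D1:**
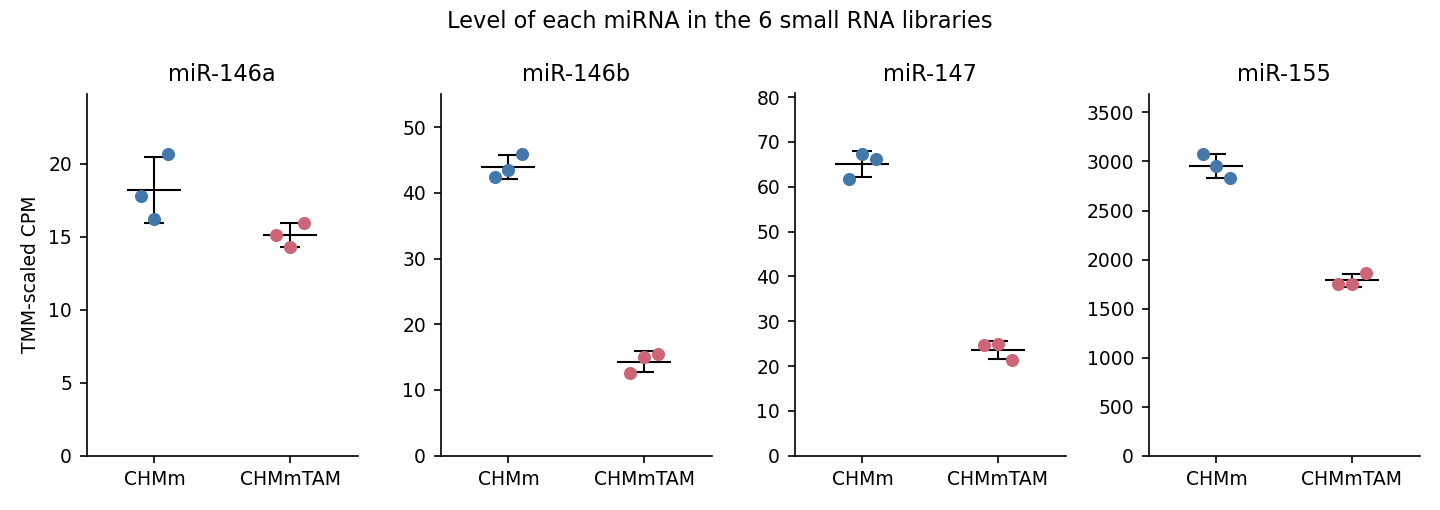
Level of each miRNA (vertical axis, TMM-scaled CPM, starting at 0) in the 3 CHMm libraries (blue) and the 3 CHMmTAM libraries (red). Points are libraries, the wide bar is the mean and the whiskers are 1 SD; the gap between the lines is wide for miR-146b, miR-147 and miR-155 and narrow for miR-146a.

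miR-146a (cfa-miR-146a in the table), the feedback inhibitor of Toll-like receptor signalling, was the least abundant of the 4 in CHMm. The CHMm libraries held 130, 188 and 185 of its reads, and the CHMmTAM libraries held 193, 158 and 127. In CPM this was 17.8, 16.2 and 20.7 in CHMm and 15.1, 14.3 and 16.0 in CHMmTAM. The lines did not overlap, but the lowest CHMm library lay only 1.01 times above the highest CHMmTAM library. CHMm averaged 18.2 ± 2.28 CPM (SD, n = 3), and CHMmTAM averaged 15.1 ± 0.816 CPM (SD, n = 3). The log2 fold change was -0.27, with a standard error of 0.13, a 95% interval from -0.52 to -0.01 and an edgeR FDR of 0.0864. The test was therefore not passed, and with TMM scaling the interval reached to a fall of 1.44-fold. Upper-quartile normalization put the log2 fold change itself at -0.51, so a larger fall is not excluded. The side of the FDR threshold depends on the processing, since 4 of 15 alternatives put miR-146a past it, with FDRs from 0.000581 to 0.0498. Without CHMm replicate 3, the highest library, the log2 fold change was -0.16 and the edgeR FDR 0.411.

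miR-146b (cfa-miR-146b), which shares the seed of miR-146a, was counted 310, 505 and 411 times in CHMm, and 160, 165 and 123 times in CHMmTAM. The scaled levels were 42.4, 43.5 and 45.9 CPM in CHMm and 12.5, 15.0 and 15.5 CPM in CHMmTAM. Even the lowest CHMm library was 2.74 times above the highest CHMmTAM library. The mean fell from 43.9 ± 1.82 CPM (SD, n = 3) to 14.3 ± 1.57 CPM (SD, n = 3), which is 3.10-fold lower (95% interval 2.65 to 3.62), and the edgeR FDR was 4.11e-41.

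The share of miR-146b among the counts of both miR-146 miRNAs compares these relatives within a library, so that no scaling enters. It was 70.5%, 72.9% and 69.0% in the CHMm libraries and 45.3%, 51.1% and 49.2% in the CHMmTAM libraries. The 95% Wilson intervals, which cover counting error only, reached down to 65.1% in CHMm and up to 56.5% in CHMmTAM. Thus miR-146b made up most of the family in CHMm and was on a par with miR-146a in CHMmTAM. The mean share was 70.8% ± 1.97 (SD, n = 3) in CHMm, against 48.5% ± 2.94 (SD, n = 3) in CHMmTAM. The log2 ratio of miR-146b to miR-146a differed by -1.36 (standard error 0.13) in CHMmTAM from that in CHMm, and the lines did not overlap. An exact two-sided permutation test gave p = 0.1, the smallest that 3 against 3 libraries allow, and 0.12 after Benjamini-Hochberg adjustment over the 6 pairs of the 4 miRNAs.

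**Figure D2:**
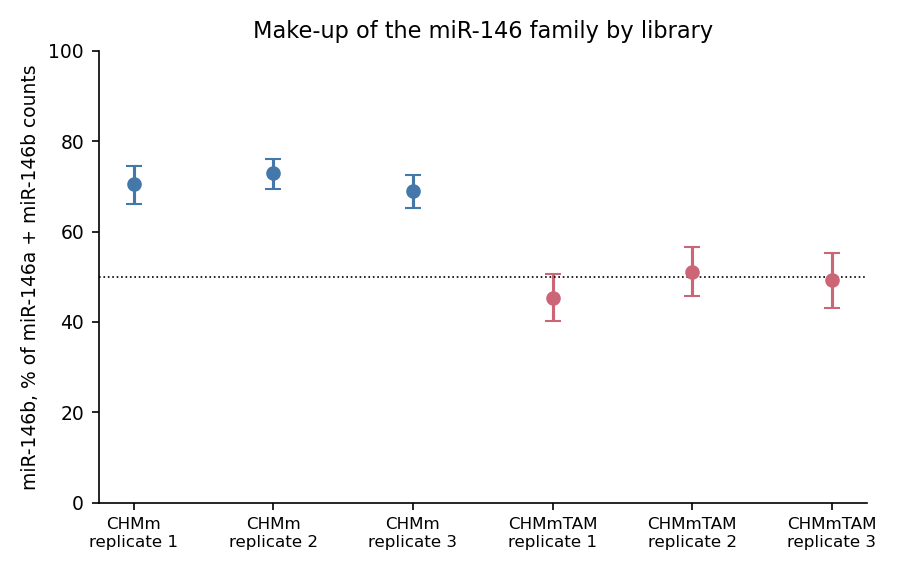
Share of miR-146b among the counts of miR-146a and miR-146b (vertical axis, percent) in each library (horizontal axis), CHMm in blue and CHMmTAM in red. Whiskers are 95% Wilson intervals and the dotted line marks equal counts; the 3 CHMm libraries lie between 69.0% and 72.9% and the 3 CHMmTAM libraries between 45.3% and 51.1%.

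Counted as a single seed family, the miR-146 miRNAs went from 62.2 ± 3.93 CPM (SD, n = 3) to 29.4 ± 1.90 CPM (SD, n = 3). The summed level was called lower, at a log2 fold change of -1.09 with a standard error of 0.10 and an edgeR FDR of 9.47e-26, and miR-146b held 90.6% of the fall in CPM. The treatment of reads that match both sequences is not given in the sources used here, and its effect on the counts of either name or on their sum was not tested.

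miR-147 (cfa-miR-147) was, with miR-146b, called lower at both thresholds. The reads counted were 452, 782 and 592 in the CHMm libraries, against 314, 274 and 169 in the CHMmTAM libraries. In CPM the libraries of CHMm were at 61.8, 67.3 and 66.2 and those of CHMmTAM at 24.6, 24.8 and 21.2. The lowest CHMm library was 2.49 times above the highest CHMmTAM library. The mean fell from 65.1 ± 2.91 CPM (SD, n = 3) to 23.6 ± 2.01 CPM (SD, n = 3), which is 2.75-fold lower (95% interval 2.40 to 3.16), and the edgeR FDR was 4.53e-42. The ratio of miR-147 to miR-146b within a library was 1.46, 1.55 and 1.44 in CHMm and 1.96, 1.66 and 1.37 in CHMmTAM. Here the lines overlapped, and an exact two-sided permutation test gave p = 0.4, with a difference in log2 ratio of 0.15 (standard error 0.15). It was the only one of the 6 pairs whose ratios overlapped between the lines.

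miR-155 (cfa-miR-155), an oncogenic miRNA of lymphoid and many solid tumors, was the most abundant of the 4 by far. It ranked 29 in CHMm and 39 in CHMmTAM among the 284 miRNAs and held 95.9% and 97.1% of the summed CPM of the 4. It was counted 22509, 34369 and 25352 times in CHMm, and 22383, 19290 and 14795 times in CHMmTAM. The scaled levels were 3078, 2959 and 2834 CPM in CHMm and 1752, 1749 and 1859 CPM in CHMmTAM. The lowest CHMm library stood 1.52 times above the highest CHMmTAM library. The mean fell from 2957 ± 122 CPM (SD, n = 3) to 1787 ± 62.5 CPM (SD, n = 3), which is 1.66-fold lower (95% interval 1.51 to 1.81). The log2 fold change of -0.73, with a standard error of 0.07 and an edgeR FDR of 1.19e-25, passed the FDR threshold and missed the fold-change threshold. Measured in counts rather than in folds, miR-155 held 94.0% of the fall of 1244 CPM that the 4 miRNAs had together.

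For miR-155 the spread between libraries was several times the counting error, and for the other 3 miRNAs both were of similar size. The coefficient of variation of miR-155 was 4.13% in CHMm and 3.50% in CHMmTAM, where counting alone gives 0.604% and 0.729%. For miR-146a the values were 12.5% and 5.39%, against 7.72% and 7.92% from counting. miR-146b had 4.14% and 10.9%, against 4.95% and 8.18% from counting, and miR-147 had 4.47% and 8.54%, against 4.05% and 6.30%.

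In CHMm the order of the levels was miR-155, miR-147, miR-146b and miR-146a, and no neighbours in this order overlapped between libraries. In CHMmTAM miR-155 and miR-147 kept their places, while miR-146a at 14.3 to 16.0 CPM and miR-146b at 12.5 to 15.5 CPM overlapped. By rank among the 284 miRNAs, miR-147 went from 113 to 134, miR-146b from 123 to 150 and miR-146a from 144 to 148. These are read counts, and since miRNAs differ in how well they are captured in libraries, the order is not one of molecules.

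Other ratios within libraries also lay apart between the lines. From CHMm to CHMmTAM the log2 ratio of miR-147 to miR-146a differed by -1.21 (standard error 0.16) and that of miR-155 to miR-146a by -0.47 (standard error 0.13). The log2 ratio of miR-155 to miR-146b differed by 0.89 (standard error 0.11) and that of miR-155 to miR-147 by 0.74 (standard error 0.12). In each of these 4 pairs the lines did not overlap, and each had p = 0.1 in the exact two-sided permutation test, with 0.12 after adjustment over the 6 pairs. How often ratios lie apart among pairs of all tested miRNAs was not computed, so these pairs are not shown to stand out.

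**Figure D3:**
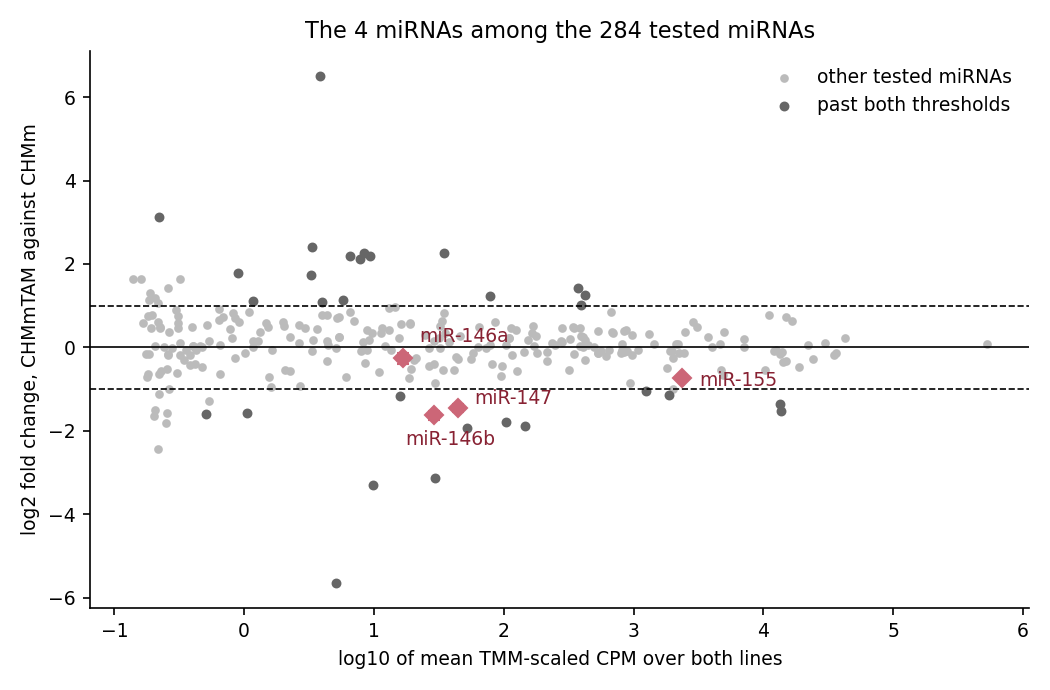
Log2 fold change of CHMmTAM against CHMm (vertical axis) by mean level (horizontal axis, log10 of TMM-scaled CPM) for the 284 tested miRNAs, with the 4 miRNAs as red diamonds with standard errors. Dashed lines mark the fold-change threshold; miR-146b and miR-147 lie below the lower line at middling levels, miR-155 lies between the lines at a high level and miR-146a close to 0.

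miRNAs with the most similar pattern over the 6 libraries were sought among the 157 miRNAs with at least 10 CPM, by the root mean square distance of their centred log2 CPM. miR-146b was nearest to miR-375, an endocrine and luminal miRNA (distance 0.10), then to miR-221 (0.13) and to the hypoxia miRNA miR-210 (0.14), with log2 fold changes of -1.79, -1.52 and -1.88. miR-147 was nearest to miR-222 (0.13), miR-221 (0.13) and miR-146b (0.17). miR-155 was nearest to miR-205, a miRNA of basal epithelium (0.06), followed by miR-532 and miR-874 (both 0.10), with log2 fold changes of -0.66, -0.54 and -0.56. miR-146a was nearest to miR-500 (0.04), miR-450a (0.09) and miR-30e (0.10), with log2 fold changes of -0.29, -0.28 and -0.15. From miR-146a, its relative miR-146b lay in place 147 by this distance. With 2 lines and 3 libraries of each, such likeness reflects mainly the size of the difference between the lines.

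A list of 20 other miRNAs with known links to NF-kB or innate signalling was described in the same fit. The table named 19 of them and 18 were tested, since let-7i had no row and miR-124 had 1 count. Of the 18, 2 were called lower and 1 higher at both thresholds, where 11.3% of all tested miRNAs were called, 5.28% lower and 5.99% higher. At FDR alone 4 were lower and 5 higher, where 44% of all tested miRNAs passed, 18.7% lower and 25.4% higher. The median log2 fold change of the list was 0.05, against 0.06 over all tested miRNAs. The 2 called lower were miR-221 and miR-222, which come from 1 transcript, repress the cell cycle inhibitor p27 and the estrogen receptor, and are induced by NF-kB. Their log2 fold changes were -1.52 and -1.36, between those of miR-155 and miR-146b, and in CHMm they stood at 20182 and 19498 CPM, above miR-155. The 1 called higher was miR-187, which is induced by interleukin-10 in monocytes, at 46.6 ± 4.07 CPM in CHMm and 110 ± 6.57 CPM in CHMmTAM. Under upper-quartile normalization its log2 fold change was 0.999, just short of the threshold.

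The remaining miRNAs of the list that passed FDR alone went in both directions. miR-199, which represses the kinase IKK-beta, was at a log2 fold change of -0.85 and miR-26a at -0.54. Under upper-quartile normalization miR-199 reached -1.09 and was called lower. miR-181b, which represses importin-alpha3 and with it the import of NF-kB into the nucleus, was at 0.84. miR-301a, an activator of NF-kB, was at 0.51, the p53 target miR-34a at 0.46 and miR-132 at 0.41. The other 9 miRNAs of the list, among them miR-9 and miR-21, did not pass, with log2 fold changes from -0.12 to 0.82 and FDRs from 0.124 to 0.720 in edgeR.

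**Figure D4:**
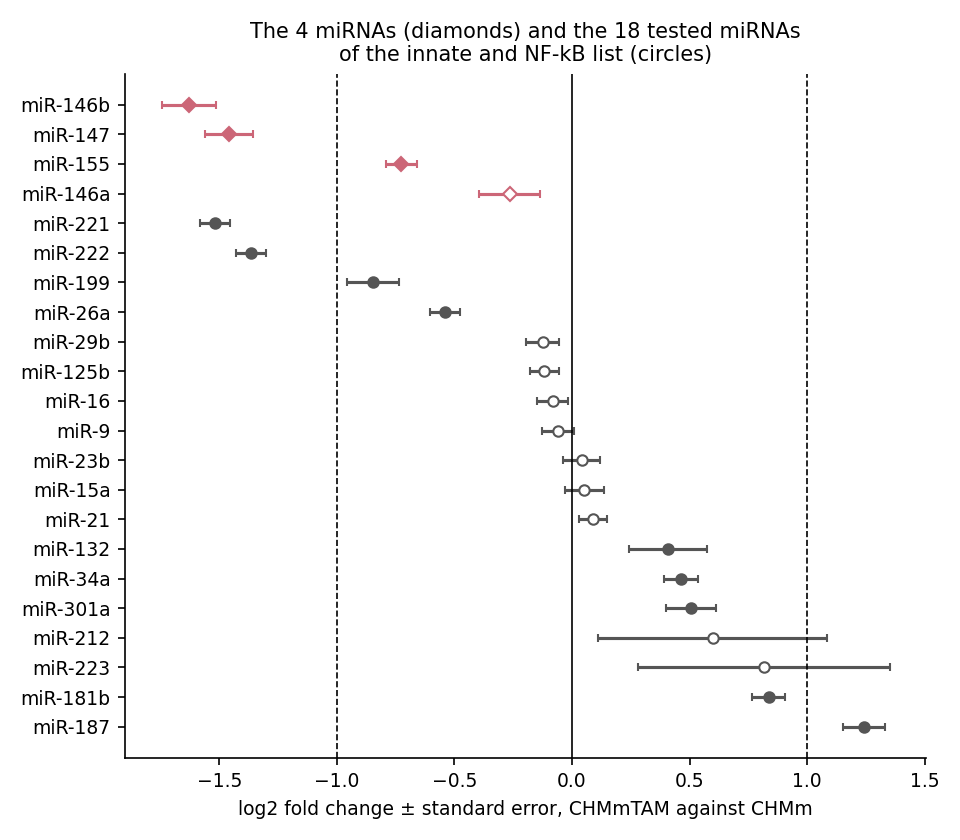
Log2 fold change of CHMmTAM against CHMm with its standard error (horizontal axis) for the 4 miRNAs (red diamonds) and the 18 tested miRNAs of the list linked to NF-kB and innate signalling (grey circles). Filled symbols passed FDR below 0.05 and dashed lines mark the fold-change threshold; the circles spread to both sides, with a median of 0.05.

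miRNAs that mark blood cells were read in the same libraries. Both lines are cultured tumor cells, and whether they hold any blood cells was not tested. In bulk RNA, a change in the number of cells of a type and a change in RNA per cell cannot be told apart. The 4 leukocyte markers summed to between 23.6 and 31.5 CPM of all counts in CHMm and to between 46.3 and 54.5 CPM in CHMmTAM. Their part in the results of the 4 miRNAs was not tested. miR-342, which is not restricted to leukocytes, held most of this sum, rising from 24.8 ± 4.52 CPM (SD, n = 3) to 43.9 ± 4.21 CPM (SD, n = 3). The defining marker miR-142 was counted 21, 40 and 22 times in CHMm and 60, 62 and 39 times in CHMmTAM, miR-223 had at most 14 counts in a library and miR-150 at most 2. Of the 3 tested leukocyte markers 2, miR-142 and miR-342, were higher at FDR alone, against 25.4% of all tested miRNAs, and none was called higher at both thresholds, against 5.99%. The red blood cell markers miR-451, miR-144 and miR-486 summed to between 1.40 and 2.80 CPM in CHMm and to between 6.39 and 8.13 CPM in CHMmTAM. Of the 2 that were tested, 1, miR-486, was called higher, at a log2 fold change of 2.40, against 5.99% of all tested miRNAs. miR-451 did not pass, at 0.85. In CHMmTAM miR-486 held most of this sum, with 63, 72 and 41 counts, against 10, 9 and 10 in CHMm.

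The scaling of the libraries moved the fold changes of all 4 miRNAs together. Under upper-quartile normalization the median over all tested miRNAs went on the log2 scale from 0.06 to -0.18, and miR-155 went to -0.97, still short of the fold-change threshold. Relative to the median of all tested miRNAs the 4 barely moved, with -0.33 for miR-146a, -1.70 for miR-146b, -1.52 for miR-147 and -0.79 for miR-155 under upper-quartile normalization, where TMM gave -0.33, -1.69, -1.52 and -0.79.

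**Figure D5:**
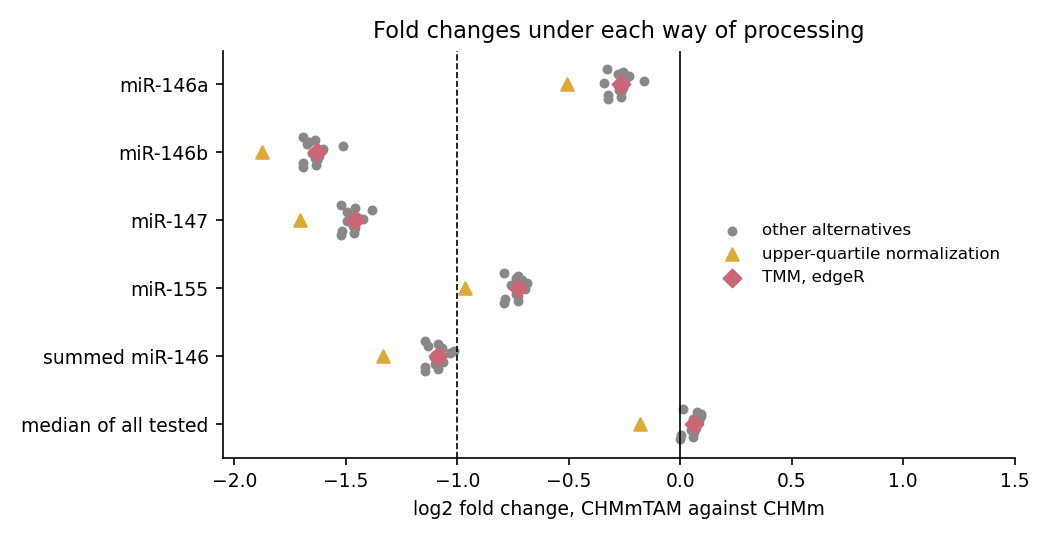
Log2 fold change of CHMmTAM against CHMm (horizontal axis) for the 4 miRNAs, the summed miR-146 miRNAs and the median of all tested miRNAs under TMM with edgeR (red diamonds), upper-quartile normalization (yellow triangles) and the other alternatives (grey points). The dashed line marks the fold-change threshold; each row keeps its side of that line, and upper-quartile normalization shifts all rows to the left alike.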

How the data were processed

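The small RNA of CHMm and CHMmTAM was sequenced on a HiSeq platform after Trizol extraction and miRNA purification. The authors deposited a table of raw read counts with a row for each canine miRNA name and a column for each library. The submitters' processing notes name CanFam3.1, HISAT2 2.0.4 and BWA without a role. The counting tool, the miRNA database, the trimming and the treatment of reads that match several miRNAs are not given in the sources used here. Libraries were assigned to lines from the sample labels.

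A miRNA entered the fit when its 6 libraries together held at least 10 counts. The counts were fitted with edgeR 4.0.16 in R 4.3.3 (TMM, quasi-likelihood test, no block), and the standard error is the fold change over the root of its F statistic. Log2 ratios within libraries used a pseudocount of 0.5 counts, and log2 CPM for the likeness of patterns used a prior count of 2. On simulated data of 284 miRNAs with 60 changed by 1.5 on the log2 scale, 82.5% were recovered with 0.45 false calls per simulation. There every miRNA had the same spread and changes went equally up and down, so the error rate in the real data was not measured. Within a line, chi-square over degrees of freedom between libraries was 26.3 or more, above sampling noise, so none was counted as a repeat. Ratios, intervals and permutation tests used Python 3.11.15 with SciPy 1.17.1. The files' build differs from that of the RefSeq table, so no coordinates are given.

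The 4 miRNAs and the lists were chosen with earlier results of these data known. The text names the 4, the listed miRNAs past a threshold, the markers, and the 3 miRNAs nearest to each of the 4 by pattern; those past FDR alone were chosen after seeing the values. The alternatives were RLE, upper-quartile and total-count scaling, TMM without the 10 most abundant miRNAs, limma-voom (limma 3.58.1), the DESeq2 1.42.0 Wald test, 2 other filters, a replicate block, each library left out, and FDR alone. Labels gave no batch.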

Additional observations from a re-analysis of the deposited data

How the results depend on the processing

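In all 15 alternatives at the same thresholds, miR-146b and miR-147 remained called lower and miR-155 remained past FDR and short of the fold-change threshold, with log2 fold changes from -1.88 to -1.51, from -1.71 to -1.38 and from -0.97 to -0.69. The summed miR-146 level was called in all 15, from -1.33 to -1.01. miR-146a stayed below 0, from -0.51 to -0.16, and passed FDR under RLE scaling, upper-quartile scaling, TMM without the 10 most abundant miRNAs and a minimum of 10 counts per library. Leaving out 1 library gave from 30 to 34 calls over all miRNAs, where the full set gave 32, and 125 passed at FDR alone. Upper-quartile normalization gave 22 lower and 12 higher calls where TMM gave 15 and 17, and of the innate list it called 3 lower and 0 higher where TMM called 2 and 1. Leaving out 1 library in turn put the difference in the log2 ratio of miR-146b to miR-146a between -1.43 and -1.27.

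With the replicate block 31 miRNAs were called and miR-146a was at -0.26 with an edgeR FDR of 0.0690. Same-numbered libraries had correlations of 0.06, 0.46 and -0.31 in their deviations from the line means over 117 miRNAs. Libraries with different numbers ran from -0.59 to 0.42. With 3 libraries per line the deviations are tied to each other, so this does not settle whether the numbers pair the libraries. The block changed no call of the 4. Among the other named miRNAs, 452 values stayed on the same side of 0 and of the thresholds. Those that reversed were not called, namely miR-200b at -0.032 under upper-quartile normalization and miR-145, with at most 5 counts in a library, at 0.052 with the replicate block and between -0.92 and 0.44 as each library was left out. The steps that made the counts were not varied here. Depth limits miR-146a and miR-146b, with 123 to 193 counts per library in CHMmTAM, where counting alone gives a variation of 7.92% and 8.18%.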

Other observations

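miRNAs that mark epithelium were abundant in both lines. The 7 miRNAs of this list summed to between 24457 and 26853 CPM of all counts in CHMm and to between 21958 and 23739 CPM in CHMmTAM. None was called at both thresholds, where 11.3% of all tested miRNAs were called. At FDR alone 3 were higher and 2 lower in CHMmTAM, where 25.4% of all tested miRNAs were higher and 18.7% lower, and 1 of the 3, miR-200b, was at -0.032 on the log2 scale under upper-quartile normalization. The largest change among them was that of miR-205, from 5998 ± 139 CPM (SD, n = 3) to 3802 ± 64.2 CPM (SD, n = 3), a log2 fold change of -0.66. miR-200c, which represses the mesenchymal factors ZEB1 and ZEB2, did not pass, with 12807 ± 504 CPM and 12272 ± 326 CPM.

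The 4 mesenchymal miRNAs were less abundant, with sums between 38.6 and 48.3 CPM in CHMm and between 23.8 and 28.1 CPM in CHMmTAM. Of these 4, 1, miR-199, was lower at FDR alone, where 18.7% of all tested miRNAs were lower. It went from 37.8 ± 2.58 CPM (SD, n = 3) to 21.2 ± 2.53 CPM (SD, n = 3). Under upper-quartile normalization it passed both thresholds, at a log2 fold change of -1.09. miR-143, miR-145 and miR-214 did not pass. miR-143 had 9, 16 and 35 counts in CHMm, and without CHMm replicate 3 its log2 fold change of 0.54 became 1.24, past both thresholds.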
